A study of Mus musculus with 4 samples.

Results

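The T cell receptor (TCR) variable gene segments are the Trav segments of the alpha chain locus and the Trbv segments of the beta chain locus. They were taken as every gene of the deposited table whose mouse symbol begins with Trav or Trbv, pseudogenes included, which gave 163 of 52636 genes. Of these, 128 are Trav segments (108 genes and 20 pseudogenes by the GENCODE M21 annotation, GRCm38 chromosome 14, 52427928 to 53977678) and 35 are Trbv segments (22 genes and 13 pseudogenes, GRCm38 chromosome 6, 40891229 to 41558452). RNA was sequenced from sorted CD4+CD62L+CD25bright regulatory T cells of C57BL/6 mice aged 7 weeks. The libraries were 2 labelled Vav1R63WThemis1-T-/- and 2 labelled Vav1R63W, replicates 2 and 3 of each. All 4 carry the Vav1R63W allele of Vav1, an adaptor and exchange factor in TCR signalling, and the first pair is also labelled as lacking Themis1, the product of Themis and part of TCR signalling, in T cells. The labels do not name the Cre line or say whether each library is 1 animal, so the p-values here speak of the spread among libraries, part of which may be technical.

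A mature T cell carries a TCR alpha chain and a TCR beta chain, and the variable domain of each is built in the thymus by joining germline segments. An alpha chain joins a Trav segment to a Traj segment, and a beta chain joins a Trbv segment to a Trbd and a Trbj segment. The V segment encodes most of the variable domain, including the antigen contact loops CDR1 and CDR2 and the first residues of CDR3, while the rest of CDR3 is made at the joint. A population of many T cell clones therefore carries transcripts of many V segments, and the share of a locus's V reads that lie on 1 segment describes the V usage of the population. In mice the central part of the Trav locus is duplicated, and its copies carry d or n in their names. Some Trav segments, marked dv, can also be joined into delta chains.

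Reads assigned to genes numbered 13963670 to 15953194 per library, and levels are CPM, reads per 1e+06 of the TMM-scaled library total. Themis had 685 and 0 reads in the libraries labelled Vav1R63WThemis1-T-/-, replicates 2 and 3, against 283 and 97 in Vav1R63W replicates 2 and 3. Replicate 2 of that label thus held more Themis reads than either Vav1R63W library. A count over the whole gene does not separate exons that a deletion leaves in place from an intact gene, so these reads do not settle the label, and every comparison is of libraries as labelled. Foxp3, the lineage factor of regulatory T cells, was at 1008 and 759 CPM in Vav1R63WThemis1-T-/- libraries and 886 and 642 CPM in Vav1R63W libraries, and all 8 genes of a regulatory T cell list had reads. Of the lists for other cells, the 5 myeloid genes were all at 0, as were Cd8a, Ms4a1, Pax5, Rag1, Rag2 and Ptcra. The CD8 T cell list, here Cd8b1 alone, was at 30.2 and 19.9 CPM in Vav1R63WThemis1-T-/- libraries and 25.5 and 38.9 CPM in Vav1R63W libraries. The immature thymocyte list summed to 81.2 and 59.9 CPM in Vav1R63WThemis1-T-/- libraries and 68.8 and 55.6 CPM in Vav1R63W libraries. The summed B cell list was at 1304 and 1411 CPM in Vav1R63WThemis1-T-/- libraries and 1155 and 1316 CPM in Vav1R63W libraries.

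The summed level of neither locus differed between the groups beyond the spread between libraries. Summed Trbv reads came to 24209 and 19520 in Vav1R63WThemis1-T-/- replicates 2 and 3, and to 22974 and 21341 in Vav1R63W replicates 2 and 3. As levels these were 1474 ± 48.7 CPM in Vav1R63WThemis1-T-/- libraries and 1552 ± 78.6 CPM in Vav1R63W libraries (SD, n = 2 each). The ranges overlapped, and the log2 ratio of the means was -0.07 (exact permutation test over libraries, two-sided, p = 0.667). Summed Trav reads came to 5746 and 3434 in Vav1R63WThemis1-T-/- libraries and 4823 and 4234 in Vav1R63W libraries. The Trav levels were 306 ± 74.1 CPM in Vav1R63WThemis1-T-/- libraries and 317 ± 28.7 CPM in Vav1R63W libraries (SD, n = 2 each), a log2 ratio of -0.05 (exact permutation test, p = 1). With 2 libraries against 2 this test cannot give a p below 0.333, and leaving out Vav1R63WThemis1-T-/- replicate 3, the lowest library, turned the Trav log2 ratio to 0.17. In bulk RNA, fewer cells with a segment and less RNA per cell cannot be told apart.

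The constant genes, which every productive chain shares, were at like levels too. Trac, the alpha constant gene, had 18293 and 16404 reads in Vav1R63WThemis1-T-/- libraries and 17449 and 17218 in Vav1R63W libraries, with a log2 fold change of -0.05 ± 0.10 (SE, edgeR unadjusted p = 0.663). For each 100 Trac reads there were 31.4 and 20.9 Trav reads in Vav1R63WThemis1-T-/- libraries and 27.6 and 24.6 in Vav1R63W libraries. For each 100 reads of the beta constant genes Trbc1 and Trbc2 there were 47.6 and 43.4 Trbv reads in Vav1R63WThemis1-T-/- libraries and 60.5 and 45.1 in Vav1R63W libraries. Both ratios overlapped between the groups.

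**Figure D1:**
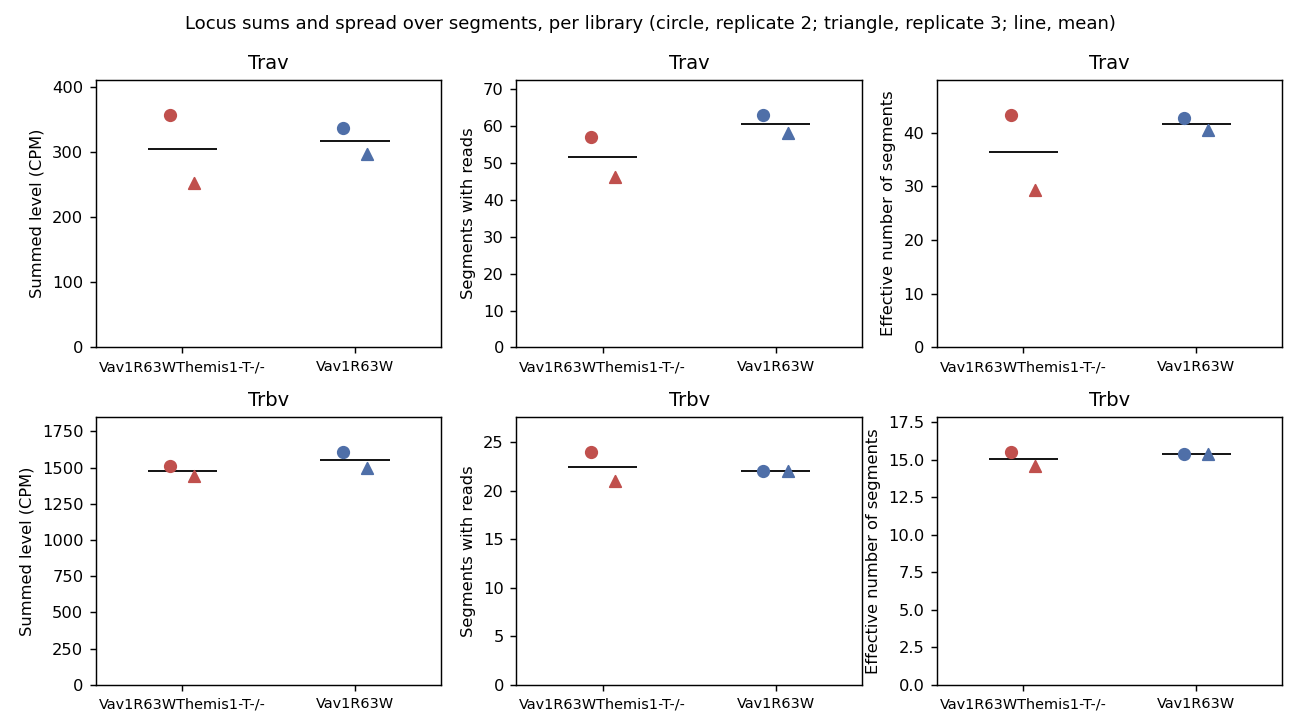
Summed level in CPM, number of segments with reads and effective number of segments for Trav (upper row) and Trbv (lower row), 1 point per library and a line at each group mean (n = 2 each). Trbv points lie close together in every panel, while Vav1R63WThemis1-T-/- replicate 3 is lowest in all 3 Trav panels, with 46 segments and an effective number of 29.3.

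The Trbv repertoire was broad, with like shares in all 4 libraries. All but 1 of the 22 Trbv genes had reads in every library; Trbv21 had none in any. The effective number of segments, the exponential of the Shannon entropy of the shares, which counts how many equally used segments would give the same spread, was 15.5 and 14.6 in Vav1R63WThemis1-T-/- libraries and 15.4 and 15.4 in Vav1R63W libraries (exact permutation test, p = 1). The 5 highest segments of each library together held 46.6% and 49.5% of Trbv reads in Vav1R63WThemis1-T-/- libraries and 48.0% and 52.4% in Vav1R63W libraries. No segment held more than 12.5% of a library's Trbv reads.

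The germline 3′ ends of the 10 Trbv segments with the highest mean shares are given because this stretch enters CDR3 and differs between segments that were used at like shares. Each line shows the last 36 coding bases of the GENCODE M21 transcript (GRCm38), 5′ to 3′ on the coding strand. Capitals run from the codon of the conserved cysteine that opens CDR3 to the last coding base of that annotation. The annotated ends were not checked against genomic sequence, and that of Trbv3 is the longest of those listed, with 21 bases from this codon.
Trbv3: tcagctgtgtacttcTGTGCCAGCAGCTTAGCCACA
Trbv31: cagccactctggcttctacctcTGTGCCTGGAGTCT
Trbv16: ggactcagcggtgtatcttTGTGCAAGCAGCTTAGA
Trbv1: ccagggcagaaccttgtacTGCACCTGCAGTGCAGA
Trbv19: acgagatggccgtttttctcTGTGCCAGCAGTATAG
Trbv13-3: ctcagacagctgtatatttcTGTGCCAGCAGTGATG
Trbv12-2: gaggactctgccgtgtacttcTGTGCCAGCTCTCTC
Trbv13-2: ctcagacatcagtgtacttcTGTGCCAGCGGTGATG
Trbv12-1: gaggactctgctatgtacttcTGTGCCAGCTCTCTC
Trbv15: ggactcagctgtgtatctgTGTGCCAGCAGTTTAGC
Among the 22 Trbv genes there were 19 distinct stretches from the cysteine codon on, and 6 segments shared theirs with another, such as Trbv12-1 with Trbv12-2 and Trbv13-3 with Trbv13-1. Those pairs differ upstream of the cysteine codon, so that all 22 Trbv genes differ within the 36 bases.

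Trbv3 had the highest mean share, with 12.5% and 10.8% of Trbv reads in Vav1R63WThemis1-T-/- libraries and 10.6% and 10.9% in Vav1R63W libraries. Per kilobase of exon, the scale on which levels of different segments can be set side by side, Trbv31 stood first with a mean of 387 CPM per kilobase, followed by Trbv3 with 372, Trbv16 with 357 and Trbv1 with 329. Their library ranges overlapped, at 317 to 457 CPM per kilobase for Trbv31 and 341 to 415 for Trbv3, so the order of the first segments is within the spread between libraries. Trbv1, the segment at the 5′ end of the locus, held 9.51% and 9.85% of Trbv reads in Vav1R63WThemis1-T-/- libraries and 8.13% and 8.87% in Vav1R63W libraries. Trbv16 differed more within the Vav1R63WThemis1-T-/- pair than between the groups, with 7.67% and 11.6% in Vav1R63WThemis1-T-/- libraries and 8.53% and 9.86% in Vav1R63W libraries.

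Of the Trbv12 and Trbv13 families, which lie interleaved along the locus, Trbv13 held the larger share in every library. The 3 Trbv13 genes together held 18.1% and 18.5% of Trbv reads in Vav1R63WThemis1-T-/- libraries and 18.3% and 16.3% in Vav1R63W libraries. The Trbv12 family held 13.9% and 13.3% in Vav1R63WThemis1-T-/- libraries and 13.3% and 10.6% in Vav1R63W libraries, all of it on Trbv12-1 and Trbv12-2, since the pseudogene Trbv12-3 had no reads. At the low end, Trbv4, Trbv5, Trbv23 and Trbv30 each stayed under 1.1% of Trbv reads in every library. Trbv30 was the most uneven of the genes, with 82 and 1 reads in Vav1R63WThemis1-T-/- libraries and 44 and 230 in Vav1R63W libraries. Trbv4 and Trbv5 share exon sequence with the noncoding gene 5830405F06Rik, so their reads are uncertain.

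**Figure D2:**
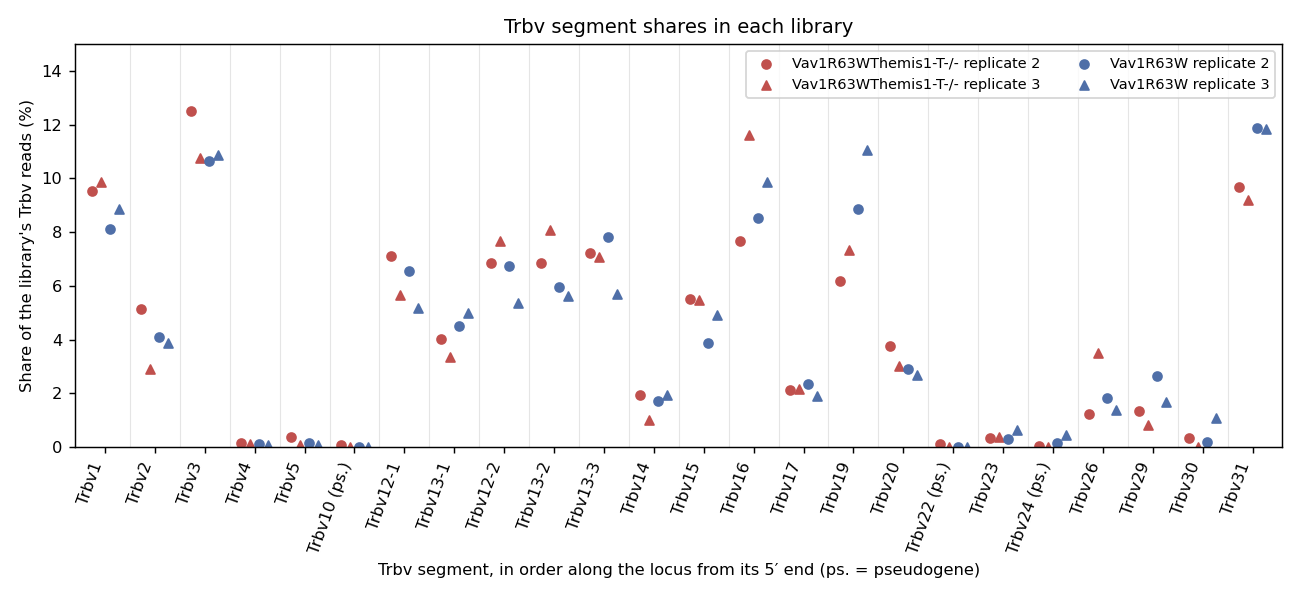
Share of each library's Trbv reads on each Trbv segment with reads, in order along the locus; red points are Vav1R63WThemis1-T-/- libraries and blue points Vav1R63W libraries (circle, replicate 2; triangle, replicate 3). Trbv13-1, Trbv19, Trbv24, Trbv29 and Trbv31 have both red points below both blue points. Trbv1, Trbv12-2, Trbv13-2, Trbv15 and Trbv20 have both red points above both blue points.

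No Trbv segment passed the test between the groups. At an edgeR adjusted p under 0.05, 0 of 22 tested Trbv segments were called, against 0% of all 10216 genes tested, and at an unadjusted p under 0.05 it was also 0, against 4.98% of all genes. DESeq2 called 0 Trbv segments as well, against 1.88% of all genes it tested, and limma-voom called 0 against 0%. The CPM of the groups did not overlap for 8 of 22 Trbv segments (3 higher and 5 lower in Vav1R63WThemis1-T-/- libraries), or 36.4%, against 33.8% of all genes, so that count is near the background. Of the 22, the pseudogene Trbv24 passed the count filter through the Vav1R63W libraries alone. The median log2 fold change of the tested Trbv segments was -0.01, beside 0.00 for all genes.

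Trbv19 had the smallest p of the Trbv segments. It had 1494 and 1430 reads in Vav1R63WThemis1-T-/- replicates 2 and 3, and 2031 and 2358 in Vav1R63W replicates 2 and 3. Both Vav1R63WThemis1-T-/- libraries lay below both Vav1R63W libraries, at 99.3 ± 8.75 CPM against 154 ± 16.4 CPM (SD, n = 2 each). The log2 fold change was -0.63 ± 0.26 (SE, edgeR unadjusted p = 0.065, adjusted p = 1.00). As a share, Trbv19 held 6.17% (95% Clopper-Pearson interval 5.87 to 6.48) and 7.33% (6.96 to 7.70) of Trbv reads in Vav1R63WThemis1-T-/- libraries, and 8.84% (8.48 to 9.21) and 11.05% (10.6 to 11.5) in Vav1R63W libraries. The intervals of different groups do not touch, but those of the 2 libraries within each group do not touch either, and they cover counting error only. In the authors' deposited table Trbv19 had a log2 fold change of -0.565 with p = 0.0106 and an adjusted p of 0.235.

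Trbv31 lies at the 3′ end of the locus beyond the constant genes and in the opposite orientation, on the minus strand, and rearranges by inversion. It had 2344 and 1795 reads in Vav1R63WThemis1-T-/- libraries and 2729 and 2522 in Vav1R63W libraries. Its levels were 139 ± 9.67 CPM in Vav1R63WThemis1-T-/- libraries and 184 ± 9.98 CPM in Vav1R63W libraries (SD, n = 2 each) and did not overlap. Its share was 9.68% and 9.20% in Vav1R63WThemis1-T-/- libraries and 11.9% and 11.8% in Vav1R63W libraries. The log2 fold change was -0.40 ± 0.22 (SE, edgeR unadjusted p = 0.133, adjusted p = 1.00), and the authors' deposited table gives -0.37 with p = 0.0473 and an adjusted p of 0.491. Trbv29 was also lower in both Vav1R63WThemis1-T-/- libraries, with 329 and 162 reads, than in the Vav1R63W libraries, with 605 and 356, at a log2 fold change of -1.05 ± 0.83 (SE, edgeR adjusted p = 1.00).

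In the other direction the smallest p belonged to Trbv13-2, a beta segment that mouse invariant NKT cells also use often. It had 1658 and 1575 reads in Vav1R63WThemis1-T-/- libraries and 1365 and 1198 in Vav1R63W libraries, without overlap, and 110 ± 9.09 CPM against 89.8 ± 8.14 CPM (SD, n = 2 each). The difference of 0.29 ± 0.28 on the log2 scale (SE) had an edgeR adjusted p of 1.00. Trbv15 followed, with 1331 and 1067 reads in Vav1R63WThemis1-T-/- libraries, against 893 and 1050 in Vav1R63W libraries, and a log2 fold change of 0.25 ± 0.34. Trbv5 (1.01 ± 1.58) and Trbv12-2 (0.17 ± 0.31) were the next by p, and their levels in CPM overlapped between the groups. As shares, those of Trbv12-2 did not, at 6.83% and 7.66% in Vav1R63WThemis1-T-/- libraries against 6.76% and 5.37% in Vav1R63W libraries.

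The Trav repertoire was more scattered than the Trbv repertoire. Of 128 Trav segments, 73 had a read in any library (68 genes and 5 pseudogenes) and 33 had reads in all 4. Segments with reads numbered 57 and 46 in Vav1R63WThemis1-T-/- libraries and 63 and 58 in Vav1R63W libraries (exact permutation test, p = 0.333, the smallest this design allows). The effective number of segments was 43.4 and 29.3 in Vav1R63WThemis1-T-/- libraries and 42.7 and 40.5 in Vav1R63W libraries (exact permutation test, p = 1). The low mean of the first group rests on replicate 3: without it the difference of the means was 1.76 segments, and with all libraries it was -5.27. The 5 highest Trav segments of each library held 25.0% and 34.9% of Trav reads in Vav1R63WThemis1-T-/- libraries and 24.3% and 25.96% in Vav1R63W libraries.

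**Figure D3:**
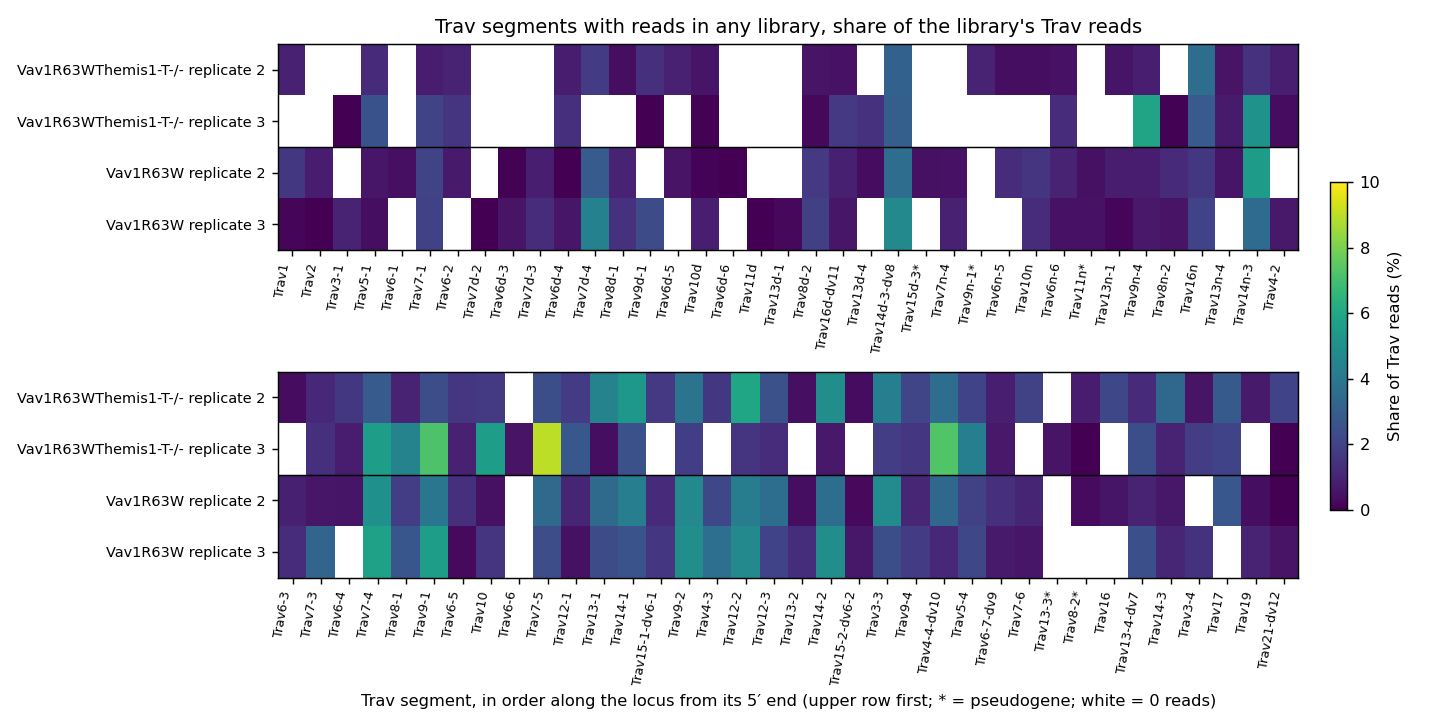
Share of each library's Trav reads on each of the 73 Trav segments with reads, in order along the locus (upper row first); white cells had 0 reads and asterisks mark pseudogenes. Vav1R63WThemis1-T-/- replicate 3, the second line, has the most white cells and the highest single cell, Trav7-5 at 8.998%.

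With each copy counted apart, every library had its own leading Trav segment, which did not hold with copies summed (below). Trav12-2 led in Vav1R63WThemis1-T-/- replicate 2 with 5.90% of Trav reads, Trav7-5 in Vav1R63WThemis1-T-/- replicate 3 with 8.998%, Trav14n-3 in Vav1R63W replicate 2 with 5.47% and Trav7-4 in Vav1R63W replicate 3 with 5.74%. Trav7-5 had 137 and 309 reads in Vav1R63WThemis1-T-/- libraries and 166 and 100 in Vav1R63W libraries. Trav12-2 had 339 and 52 reads in Vav1R63WThemis1-T-/- libraries and 202 and 199 in Vav1R63W libraries. The 2 Vav1R63WThemis1-T-/- libraries lay on either side of the Vav1R63W pair for Trav12-2 and overlapped it for Trav7-5, and the log2 fold changes were 0.75 ± 1.32 for Trav7-5 and -0.17 ± 1.40 for Trav12-2 (SE, edgeR adjusted p = 1.00 for each).

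The 3′ ends of the segments that led a library, printed as for Trbv, show germline stretches of 13 to 17 bases from the cysteine codon on, which family members often share.
Trav12-2: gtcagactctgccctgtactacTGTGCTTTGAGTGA
Trav7-5: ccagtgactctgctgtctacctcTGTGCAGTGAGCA
Trav14n-3: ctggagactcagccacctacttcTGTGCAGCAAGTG
Trav7-4: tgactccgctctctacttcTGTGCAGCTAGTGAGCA
Among the 108 Trav genes there were 41 distinct stretches from the cysteine codon on, and 89 genes shared theirs with another. All 9 Trav14 genes end alike, with the stretch shown for Trav14n-3, and 8 Trav7 genes, Trav7-5 among them, end with the stretch shown for it. By family, Trav14 held 18.2% and 12.3% of Trav reads in Vav1R63WThemis1-T-/- libraries and 17.6% and 16.8% in Vav1R63W libraries. Trav7 held 10.9% and 18.0% in Vav1R63WThemis1-T-/- libraries and 16.4% and 20.5% in Vav1R63W libraries. These shares overlapped between the groups for both families, while the summed Trav7 level did not, at 38.9 and 45.6 CPM in Vav1R63WThemis1-T-/- libraries against 55.2 and 61.0 CPM in Vav1R63W libraries.

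Several other leading segments were uneven within the Vav1R63WThemis1-T-/- pair. Trav14-2 had 284 and 24 reads there and 174 and 210 in Vav1R63W libraries, and Trav13-1, named here after its values were seen, had 257 and 13 against 167 and 99. Trav9-1, the second segment by mean share, had 135 and 248 reads in Vav1R63WThemis1-T-/- libraries and 190 and 236 in Vav1R63W libraries. Trav4-4-dv10, 1 of the segments that delta chains can also use, had 205 and 250 reads in Vav1R63WThemis1-T-/- libraries against 161 and 48 in Vav1R63W libraries, without overlap (log2 fold change 1.09 ± 1.41, SE, edgeR adjusted p = 1.00). Per kilobase the 6 highest Trav segments lay between 31.1 and 37.1 CPM per kilobase on average, and the libraries of each of them spread more widely than that range. All dv segments together held 13.2% and 15.1% of Trav reads in Vav1R63WThemis1-T-/- libraries and 11.7% and 12.4% in Vav1R63W libraries (exact permutation test, p = 0.333).

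Zeros were common among Trav segments. Of the 66 Trav segments that reached 20 reads in some library, 33 (50%) had 0 reads in at least 1 other library, with 9 and 22 of the zeros in Vav1R63WThemis1-T-/- libraries and 5 and 11 in Vav1R63W libraries. Among all 4668 genes with a maximum in that range the share was 63.1%. Those genes too were at 0 most often in Vav1R63WThemis1-T-/- replicate 3, at 41.9%, against 26.7% to 28.9% in the other libraries. None of the 21 Trbv genes with reads had a library at 0. For Trav in Vav1R63WThemis1-T-/- replicate 3, the library with fewest Trav reads, 3 reads are 0.0874% of the total, the share that a count of 0 allows.

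The difference in scatter between the loci can be put as the share of reads that lie on different segments in 2 libraries, the summed absolute difference of their shares divided by 2. For Trbv this was 9.84% between the Vav1R63WThemis1-T-/- libraries, 7.72% between the Vav1R63W libraries and 9.06% to 12.6% across groups. For Trav it was 48.3% between the Vav1R63WThemis1-T-/- libraries, 28.4% between the Vav1R63W libraries and 27.5% to 45.9% across groups. Libraries of different groups thus differed in Trav usage by no more than the Vav1R63WThemis1-T-/- libraries differed from each other. The depth differs with it: a Trbv gene reached a median of 1240 reads in its highest library, against 92.5 reads for these 66 Trav segments. For tested Trav segments the median absolute log2 ratio of CPM (0.5 added) was 1.35 within the Vav1R63WThemis1-T-/- pair and 0.87 within the Vav1R63W pair. For all tested genes in the same range of mean CPM it was larger, at 1.75 and 1.23. For tested Trbv segments it was 0.35 and 0.31, against 0.96 and 0.73 for all tested genes in their range.

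**Figure D4:**
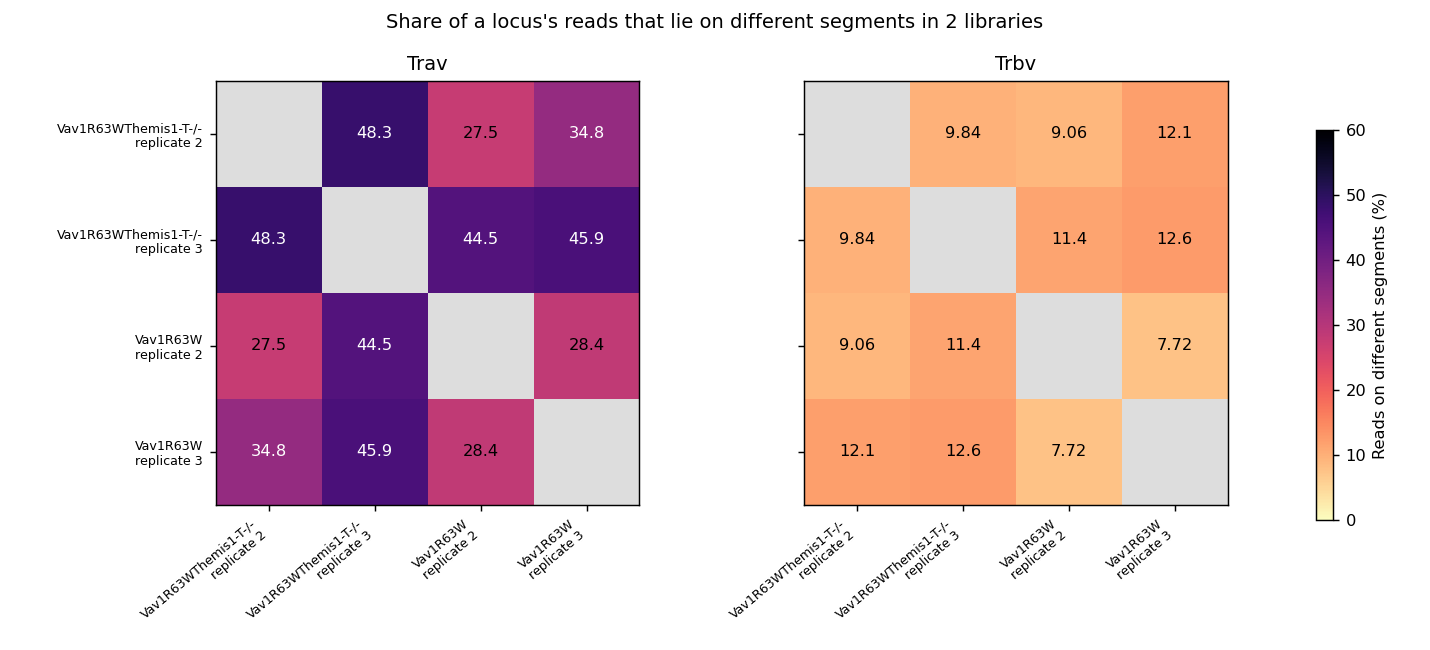
Percent of Trav reads (left) and Trbv reads (right) that lie on different segments in each pair of libraries, on 1 colour scale. Pairs with Vav1R63WThemis1-T-/- replicate 3 are the highest for Trav (44.5% to 48.3%), and all Trbv pairs lie between 7.72% and 12.6%.

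No Trav segment was called between the groups. edgeR called 0 of 61 tested segments at an adjusted p under 0.05, against 0% of all genes, and 3 had an unadjusted p under 0.05, or 4.92%, against 4.98% of all genes. DESeq2 called 0, against 1.88% of all genes, with 1 at an unadjusted p under 0.05, against 5.94%. limma-voom called 0, against 0%, with 1 at an unadjusted p under 0.05, against 4.73%. Non-overlap of the groups was seen for 24 of 61 Trav segments (10 higher and 14 lower in Vav1R63WThemis1-T-/- libraries), or 39.3%, against 33.8% of all genes. The median log2 fold change was -0.16, beside 0.00 for all genes, and 4 segments had passed the count filter through the Vav1R63W libraries alone. Those 4 are among the 14 lower segments and include the 3 with an unadjusted edgeR p under 0.05, so both counts depend in part on the filter. The authors' deposited table gives an adjusted p for 14 Trav and 17 Trbv segments, of which 0 were called, against 1.56% of all genes with an adjusted p there.

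The 3 Trav segments with the smallest p had no reads in either Vav1R63WThemis1-T-/- library. Trav7d-3 had 40 and 54 reads in Vav1R63W libraries, which is at least 16.1-fold lower in Vav1R63WThemis1-T-/- libraries when these are set to 3 reads each (edgeR unadjusted p = 0.0171, adjusted p = 0.9005). Trav7n-4 had 24 and 39 reads in Vav1R63W libraries, at least 10.8-fold lower in Vav1R63WThemis1-T-/- libraries (unadjusted p = 0.0162, adjusted p = 0.9005), and the pseudogene Trav11n had 21 and 20, at least 7.03-fold lower (unadjusted p = 0.0138, adjusted p = 0.9005). The next by p, Trav8n-2, had 0 and 2 reads in Vav1R63WThemis1-T-/- libraries and 60 and 23 in Vav1R63W libraries (edgeR adjusted p = 1.00). Summed with their copies, all of these but Trav11n differed less: the log2 fold change was -1.27 for the Trav7-3 group that holds Trav7d-3 (unadjusted p = 0.463), which differs from Trav7-3 at 2 of 337 coding bases, -0.998 for the Trav7-4 group and -1.71 for the group of Trav8n-2. All 4 are d or n copies, and these are the 4 that entered the test through the Vav1R63W libraries alone. In the other direction Trav5-1 had 68 and 87 reads in Vav1R63WThemis1-T-/- libraries against 29 and 16 in Vav1R63W libraries (log2 fold change 1.75 ± 1.53, SE, edgeR adjusted p = 1.00). Trav9n-4, Trav10 and Trav6d-4 followed, with log2 fold changes of 1.96 ± 1.72, 1.75 ± 1.67 and 1.76 ± 1.87 and no overlap between the groups. With copies summed, Trav9n-4 came to 1.14 and Trav10 to 0.41. Without Vav1R63WThemis1-T-/- replicate 3, Trav9n-4 came to 0.42 and Trav10 to 1.01, and Trav6d-4 ranged from 0.81 without Vav1R63W replicate 2 to 5.31 without Vav1R63W replicate 3.

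The copies of the duplicated region differ in how far their reads can be told apart. Of the 27 pairs of a d and an n copy, 14 have identical coding sequences, and neither member of any of those pairs had a read. Reads that map to several places stand in a separate summary line of the count files, which held 7.39% to 8.94% of a library's reads. Of the 41 Trav segments without a single 75-base stretch that occurs in no other GENCODE M21 transcript, 3 had reads, and none of them more than 18 in a library. Of the 71 Trav genes (pseudogenes not counted) that do have such a stretch, 65 had reads. Trav18 and Trav23, whose sequence is wholly unique at this length, had none.

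**Figure D5:**
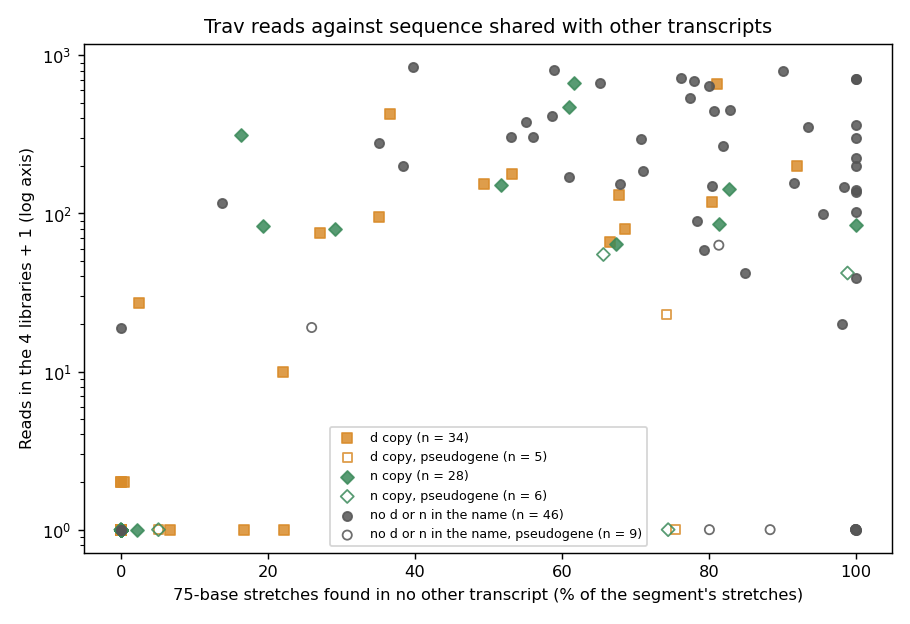
Reads of each of the 128 Trav segments, summed over the 4 libraries plus 1 on a log axis, against the percent of its 75-base stretches found in no other transcript; filled symbols are genes and open symbols pseudogenes, in colours for d copies, n copies and others. The segments at 0 on the horizontal axis lie at or near the bottom: 38 of these 41 had no reads.

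The trios around Trav9-2 and Trav7-4, both among the 10 Trav segments of highest mean share, show how few bases separate the copies. Each line shows the 90 coding bases with the most differing columns (bases 246 to 335 of the Trav9-2 trio and 20 to 109 of the Trav7-4 trio, counted from 1 at the first coding base), with capitals at every column where the 3 copies are not all alike.
Trav9-2: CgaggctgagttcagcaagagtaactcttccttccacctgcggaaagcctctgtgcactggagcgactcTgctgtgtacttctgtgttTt
Trav9d-2: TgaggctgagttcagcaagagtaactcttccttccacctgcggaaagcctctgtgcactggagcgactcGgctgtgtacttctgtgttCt
Trav9n-2: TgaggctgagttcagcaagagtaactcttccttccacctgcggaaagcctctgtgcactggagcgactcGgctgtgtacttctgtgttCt
Trav7-4: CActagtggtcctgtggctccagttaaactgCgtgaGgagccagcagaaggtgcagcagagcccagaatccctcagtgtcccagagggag
Trav7d-4: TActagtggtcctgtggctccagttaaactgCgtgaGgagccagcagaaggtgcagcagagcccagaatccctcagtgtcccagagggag
Trav7n-4: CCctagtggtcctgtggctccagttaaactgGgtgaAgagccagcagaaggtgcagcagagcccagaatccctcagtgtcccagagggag
The Trav9-2 trio differs at 5 coding columns in all, and Trav9d-2 and Trav9n-2 are alike at every one. Those 2 copies had 0 reads in every library, while Trav9-2 had 222 and 64 in Vav1R63WThemis1-T-/- libraries and 227 and 210 in Vav1R63W libraries. The Trav7-4 trio differs at 8 coding columns, and each copy has some stretch of its own. There Trav7-4 had 164 and 192 reads in Vav1R63WThemis1-T-/- libraries and 243 and 243 in Vav1R63W libraries, and Trav7d-4 had 100 and 0 against 138 and 186.

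Summing copies of the same name left 57 Trav groups, of which 47 had reads and 28 had reads in all 4 libraries. The Trav14-3 group led in both Vav1R63WThemis1-T-/- libraries, with 7.92% and 9.11% of Trav reads, and in Vav1R63W replicate 2, with 9.68%. In Vav1R63W replicate 3 it held 9.28%, behind the Trav7-4 group with 11.1%. edgeR called 0 of the 41 groups tested, and 0 of all 10196 genes in that fit. The Trav7-4 trio summed to 264 and 192 reads in Vav1R63WThemis1-T-/- libraries and 405 and 468 in Vav1R63W libraries, without overlap, at a log2 fold change of -0.998 ± 0.80 (SE, edgeR adjusted p = 1.00). Its share differed by -4.63 percentage points (Vav1R63WThemis1-T-/- minus Vav1R63W), against -1.17 for Trav7-4 alone. The Trav11 trio was the only group with an unadjusted p under 0.05, beside 506 of the 10196 genes, and nearly all of its reads were the 21 and 20 of Trav11n. This trio passed the count filter through the Vav1R63W libraries alone.

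Along the locus, most Trav reads came from the end near the Traj segments. The 43 Trav segments nearest to it held 74.7% and 68.5% of Trav reads in Vav1R63WThemis1-T-/- libraries and 64.8% and 62.5% in Vav1R63W libraries, without overlap between the groups (exact permutation test, p = 0.333). The farthest 42 held 9.68% and 7.60% in Vav1R63WThemis1-T-/- libraries and 11.6% and 15.02% in Vav1R63W libraries. The segments differ in how far they can be counted: on average 75.8% of 75-base stretches are unique among the near 43, against 30.98% among the far 42, and its part in the levels was not tested. Over the 108 Trav genes, the rank along the locus and the mean CPM per kilobase had a Pearson r of 0.42 and a Spearman rho of 0.38, values across segments that share libraries and copies. For the 22 Trbv genes they were -0.18 and -0.21.

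Pseudogene segments held small shares. They took 1.76% and 0.553% of Trav reads in Vav1R63WThemis1-T-/- libraries and 1.18% and 0.472% in Vav1R63W libraries. Trav8-2 had 47 and 1 reads in Vav1R63WThemis1-T-/- libraries and 14 and 0 in Vav1R63W libraries, and Trav9n-1 had 54 and 0 against 0 and 0. Of the Trbv pseudogenes, Trbv24 had 6 and 0 reads in Vav1R63WThemis1-T-/- libraries and 38 and 93 in Vav1R63W libraries (edgeR adjusted p = 1.00), and Trbv22 had 29 and 0 against 0 and 0.

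Some T cells carry a nearly fixed alpha chain and can be looked for by V segment. Mouse invariant NKT cells join Trav11 to Traj18. Trav11 had 0 reads in every library and Trav11d had 1 read, in Vav1R63W replicate 3. Neither has a 75-base stretch of its own, so at that length these zeros do not measure the segment. With stretches of 100 bases, Trav11 has some of its own and Trav11d has none. Traj18 had 53 and 136 reads in Vav1R63WThemis1-T-/- libraries and 49 and 55 in Vav1R63W libraries, while Zbtb16, the transcription factor of these cells, and Klrb1c were at 0 in all 4. The 5 genes of the invariant NKT list summed to 3.37 and 25.8 CPM in Vav1R63WThemis1-T-/- libraries and 3.71 and 3.86 CPM in Vav1R63W libraries. Of these genes 2 were detected, Traj18 and Tbx21. In reads the list held 54 and 350 in Vav1R63WThemis1-T-/- libraries and 53 and 55 in Vav1R63W libraries. Traj18 gave 136 of the 350 reads in Vav1R63WThemis1-T-/- replicate 3, so most of that sum lay on the other gene. Whether that sum reflects invariant NKT cells was not tested. Mucosal-associated invariant T cells join Trav1 to Traj33. Trav1 had 53 and 0 reads in Vav1R63WThemis1-T-/- libraries and 78 and 5 in Vav1R63W libraries, and Traj33 had 1 and 0 against 15 and 0.

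The segments that V segments are joined to were few in reads. Of 60 Traj segments 47 had reads and 12 were tested, of which edgeR called 0, against 0% of all genes. Of the 12, 11 had a positive and 1 a negative log2 fold change, beside 5121 positive and 5095 negative over all genes tested. Summed Traj levels were 32.7 and 60.9 CPM in Vav1R63WThemis1-T-/- libraries and 20.9 and 26.9 CPM in Vav1R63W libraries, without overlap. The Trbj1 cluster summed to 19.1 and 36.2 CPM in Vav1R63WThemis1-T-/- libraries and 12.9 and 13.7 CPM in Vav1R63W libraries, with 7 of 7 log2 fold changes positive and 0 called. Traj16 and Trbj1-7 passed the count filter through the Vav1R63WThemis1-T-/- libraries alone. The Trbj2 cluster summed to 30.5 and 23.0 CPM in Vav1R63WThemis1-T-/- libraries and 26.5 and 19.6 CPM in Vav1R63W libraries. Of its 6 tested segments, 5 had a positive and 1 a negative log2 fold change, and 0 were called. The Trbd pair was at 33.3 and 23.7 CPM in Vav1R63WThemis1-T-/- libraries and 29.5 and 24.5 CPM in Vav1R63W libraries, with 0 called.

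Segments of the gamma and delta chains give a scale for the low counts. Trdc, the delta constant gene, was at 9.72 and 7.16 CPM in Vav1R63WThemis1-T-/- libraries and 8.54 and 10.5 CPM in Vav1R63W libraries. Trgv2 had 0 and 0 reads in Vav1R63WThemis1-T-/- libraries and 33 and 29 in Vav1R63W libraries, the pattern of Trav11n, Trav7n-4 and Trav7d-3 (edgeR adjusted p = 0.9005). The reverse pattern occurred too. Traj16 had 17 and 33 reads in Vav1R63WThemis1-T-/- libraries and 0 and 0 in Vav1R63W libraries (edgeR adjusted p = 0.9005). Trgv2 and Traj16 each passed the count filter only through the group in which they had reads, so their p-values depend in part on the filter. The Trdj segments together had 15 and 28 reads against 0 and 0, and were not tested. The 7 genes of a gamma delta T cell list summed to 19.8 and 53.2 CPM in Vav1R63WThemis1-T-/- libraries and 33.2 and 59.5 CPM in Vav1R63W libraries, with Sox13 and Trdv4 at 0 throughout. Dntt, which adds bases at the joints in thymocytes, had 132 reads in Vav1R63W replicate 2 and 0 in the other libraries.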

How the data were processed

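STAR was the aligner and Trim Galore the trimmer, per the submitters' processing notes, which name mm9, whereas the series' design text names Ensembl release 90. Versions are not given in the sources used here. The deposited files hold raw counts per gene, unstranded and by strand, and the authors' deposited table holds the same counts with the authors' own comparison: a linear fold (ratio), its log2 value and p-values, per the file headers. Its 4 columns of normalized values were not used. STAR's summary lines (21.1% to 23.1% of reads) were left out. Symbols matched 52403 of 52636 gene IDs; annotation, coordinates and sequences are those of GENCODE M21 by gene ID.

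Genotype was tested with edgeR 4.0.16 in R 4.3.3 (TMM, filterByExpr, minimum count 10 and minimum total 15, robust quasi-likelihood F test, two-sided, Benjamini-Hochberg over 10216 genes), after the code was tested on simulated data. Standard errors are the fold change over the square root of F. Alternatives were DESeq2 1.42.0, limma-voom (limma 3.58.1), DESeq2 size factors, other filters, a replicate block, locus totals as library sizes, the strand columns, copies summed, pseudogenes left out, the inverse Simpson index and leaving out each library. Intervals and the floor of 3 reads per library cover counting error only, since PCR copies are not independent molecules. The kit is not stated to mark strand, so overlapping genes cannot be told apart.

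Named segments are, per locus, the 10 with the highest mean share, the 4 with the smallest p in each direction, the 2 leading pseudogenes, and Trav11, Trav11d, Trav1, Trbv13-2 and Trbv31. Members, lists and rules were chosen with earlier results of these data known.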

Additional observations from a re-analysis of the deposited data

Results flagged for a closer look

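Trav13n-3 is outside the comparisons above because its unstranded count is 0 in every library, yet the 2 strand columns of the same files hold reads for it. Together they gave 27 and 33 reads in Vav1R63WThemis1-T-/- replicates 2 and 3, and 11 and 0 in Vav1R63W replicates 2 and 3, so that both Vav1R63WThemis1-T-/- libraries lay above both Vav1R63W libraries, a difference that was not tested. Its exons overlap those of the antisense gene Gm43650, which also has 0 unstranded reads. The strand columns added up to the unstranded column in all libraries for 161 of the 163 segments, the other exception being Trbv20.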

How the results depend on the processing

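The count of called Trav and of called Trbv segments was 0 under all 14 alternatives. Over all genes, DESeq2 called 206 (85 higher and 121 lower in Vav1R63WThemis1-T-/- libraries), where edgeR called 0 with 509 at an unadjusted p under 0.05 and every other alternative, leaving out each library included, called 0; the cause was not tested. Leaving out each library, the log2 ratio of the summed Trav level ranged from -0.33 (without Vav1R63WThemis1-T-/- replicate 2) to 0.17 (without its replicate 3) and was 0.04 without Vav1R63W replicate 2. The difference in the effective number of Trav segments ranged from -12.3 to 1.76, and that of Trbv segments from -0.78 to 0.14, positive only without Vav1R63WThemis1-T-/- replicate 3. The summed Trbv level kept its sign, at -0.12 to -0.03. Of 222 values for the 16 segments named by p, 2 reversed: Trbv5, from -0.43 without Vav1R63WThemis1-T-/- replicate 2 to 1.78 without Vav1R63W replicate 2, and Trbv12-2, from -0.025 without Vav1R63W replicate 3 to 0.40 without its replicate 2. Others moved by over 1.5 times without reversing: with copies summed, Trav7d-3, Trav7n-4, Trav8n-2, Trav9n-4 and Trav10 came to -1.27, -0.998, -1.71, 1.14 and 0.41. Leaving out 1 library, Trav10 ranged from 1.01 to 2.79, Trav6d-4 from 0.81 to 5.31, Trbv15 came to 0.13 and Trbv29 to -0.63 without Vav1R63W replicate 2, Trav9n-4 to 0.42 and Trav8n-2 to -8.44 without Vav1R63WThemis1-T-/- replicate 3, and Trbv24 to -9.01 without its replicate 2. Trav6d-4 was 2.84 with limma-voom and 2.92 with the replicate block. For shares, 159 values stayed within the spread between libraries and 1 moved by more, that of the summed Trav7-4 copies (-4.63 against -1.17 percentage points). With 2 libraries per group, leaving out 1 cannot move a share difference beyond that spread as computed. The values without 1 library therefore could not have been counted as moved, and they do not show stability. Leaving out 1 library changed the sign of the share difference for 7 of the 10 leading Trav and 3 of the 10 leading Trbv segments. Examples are Trav7-4 (-2.53 to 0.20 percentage points) and Trav7-5 (-0.52 to 6.10). The share differences of Trbv19 and Trbv31 kept their sign. The replicate numbers pair nothing that the labels state, and same-numbered libraries' deviations correlated at 0.02 across genes; with the replicate block 0 genes were called, with 163 at an unadjusted p under 0.05. Low Trav depth limits what can be seen for single segments. A library left out leaves a lone sample, which is assumed to vary like the other group.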
